A study of Mus musculus with 7 samples.

Results

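Muscle fibres couple excitation to contraction through calcium and pay for it with phosphocreatine and oxygen, and 10 genes of this machinery were examined in 7 populations of mouse cells. They were Cacna1s, Ryr1, Casq1, Casq2, Atp2a1, Pvalb, Ckm, Ckmt2, Mb and Cox6a2, chosen by name as genes of late muscle maturation. The arrays carried 12 probes for them among 55681 probes of 34947 names. All 10 genes had at least 1 probe well above background on 1 array or more, and 6 of them entered the test across 19761 genes.

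In skeletal muscle a depolarisation of the tubule membrane moves the voltage sensor encoded by Cacna1s, which opens the ryanodine receptor of the sarcoplasmic reticulum. Calcium held there by calsequestrin flows out, triggers contraction, and is taken back by the SERCA pump or held for a while by parvalbumin in fast fibres. Creatine kinases, myoglobin and the muscle form of cytochrome c oxidase serve the supply of ATP. Most of these genes are known to reach their full level late, after myogenin, embryonic myosin and the acetylcholine receptor have come on in young myotubes. The 10 are called late genes here as a list, and the timing of each, Casq2 among them, was not tested.

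Gene expression was measured on single-colour Agilent SurePrint G3 mouse arrays of 60-mer probes, 1 array per population, in a study that traced lineages of cells by mouse line and by Sdc4, the gene of the cell surface proteoglycan syndecan-4. The Cspg4+ population came from the line B6,FVB-Tg(Cspg4-cre)1Akik/J, which carries a transgene with Cre under Cspg4, a gene of pericytes and other perivascular cells, and has no Sdc4 label. The Sdc4+ group held Myf5SOR+ cells of the line B6.129S4-Myf5tm3(cre)Sor/J, with Cre knocked into the myogenic regulator Myf5, Cspg4- cells of the Cspg4-cre line, and cells of outbred CD1 mice, Crl:CD1(ICR). The Sdc4- group held B195AP+ cells of the line B195AP-Cre, its driver not being stated in the labels, Cspg4- cells of the Cspg4-cre line, and CD1 cells. Each population pooled material of 8 to 10 animals and 10 to 200 ng of RNA went into labelling, so the spread between the arrays of a group is a spread between mouse lines and not between animals. The labels give neither the age of the animals nor the way the cells were sorted.

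A level here is the log2 processed signal minus the 75th percentile of the same array, so 0 is the signal of a spot brighter than 75% of the others. Well above background is the scanner software's own mark for a spot, and a value without it is only an upper bound.

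Between 45.9% and 50.8% of the spots were well above background on 6 arrays and 57.2% on the Cspg4+ array. The median signal was 21.5 on the Cspg4+ array and 9.14 to 16.2 on the others. The 75th percentile was 177 there and 128 to 242 on the others. A dim gene marked in Cspg4+ cells alone carries this limit, and the share of all genes so marked was not counted. The 7 arrays shared 1 slide. The Sdc4+ arrays lay in its row 1 and the others in row 2, so that slide row and Sdc4 label cannot be told apart. The level of the Sdc4 transcript was 5.41 in Cspg4+ cells, 3.80 to 6.35 in the Sdc4+ group and 1.98 to 5.28 in the Sdc4- group, so the groups overlapped across lines. Within the lines that gave both, it was 2.10-fold higher in Sdc4+ than in Sdc4- cells of CD1 mice and 2.27-fold higher among Cspg4- cells. Pax7 and Myf5, defining genes of satellite cells, were not well above background on any of the 7 arrays. On the B195AP+ array a part of the surface carried streaks, where 8.17% of bright spots lay over 4-fold from the other arrays against 0.832% elsewhere, and 6 of the 12 probes lay in that part.

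The 10 genes were detected unevenly. In Cspg4+ cells 5 of the 10 were well above background. Among the Sdc4+ populations it was 4 in Myf5SOR+ cells, 4 in Cspg4- cells and 3 in CD1 cells, against 6 in B195AP+, 6 in Cspg4- and all 10 in CD1 cells of the Sdc4- group. Each Sdc4- population thus showed more of the genes than any Sdc4+ population, and CD1 Sdc4- cells were the only ones with a complete set. Each array is a bulk sample, in which fewer cells of a type and less RNA per cell cannot be told apart.

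**Figure D1:**
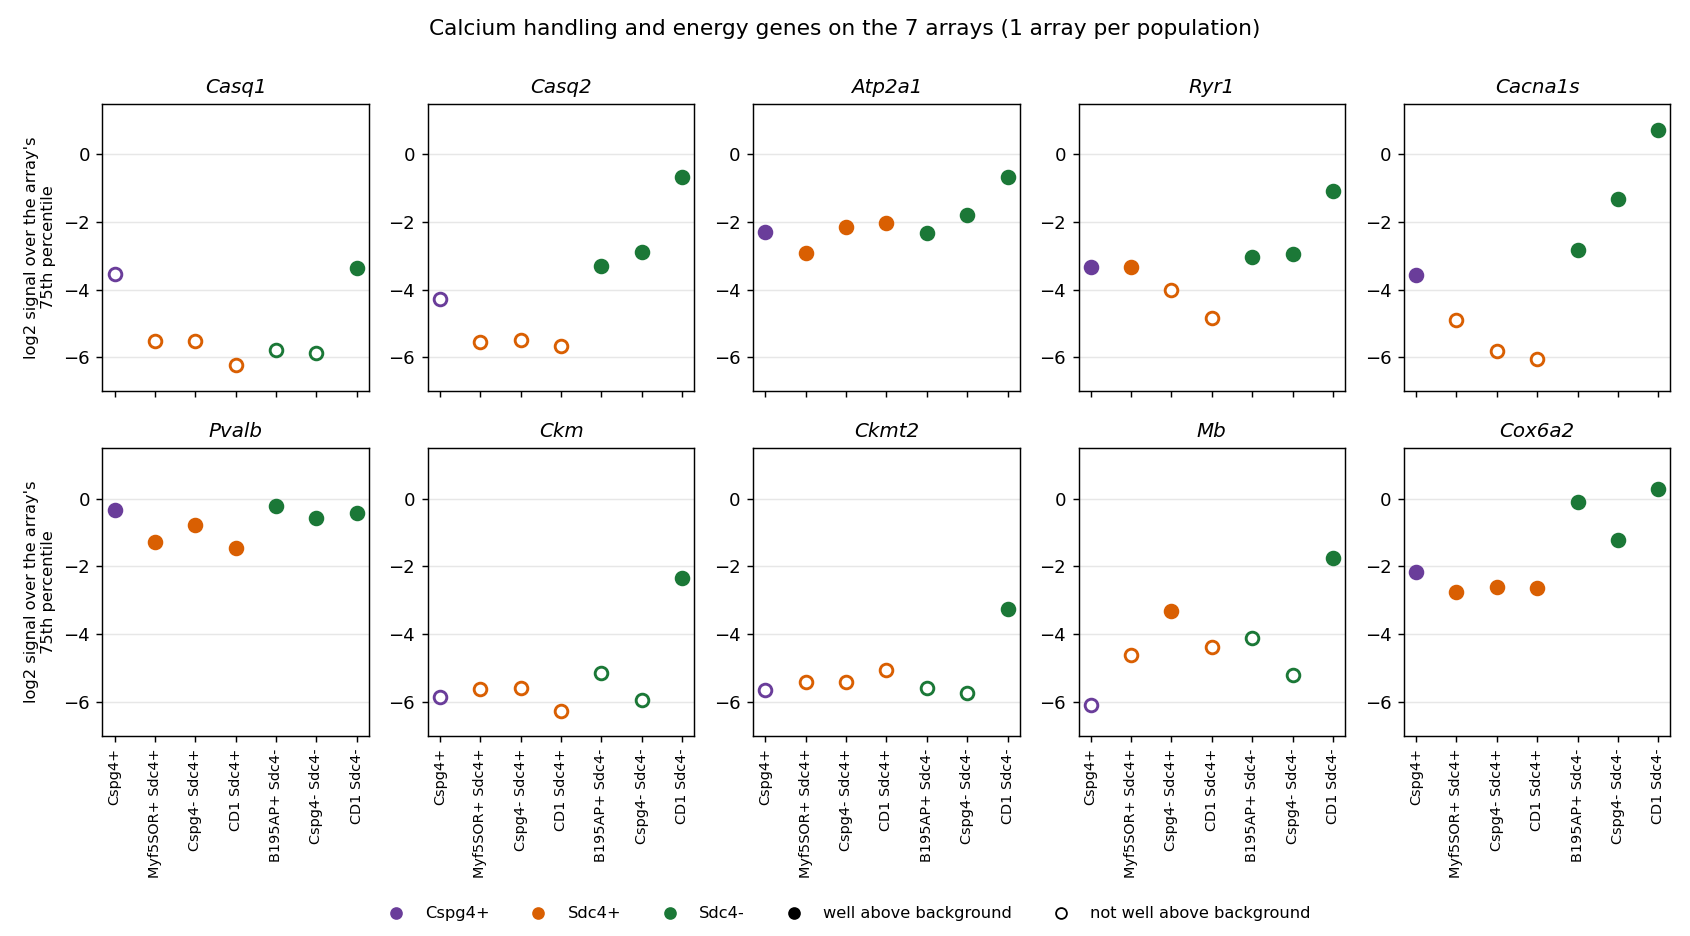
Level of each of the 10 genes on each of the 7 arrays, on the vertical axis as log2 signal over the array's 75th percentile; each point is 1 array, purple for Cspg4+, orange for Sdc4+ and green for Sdc4-, and an open point was not well above background. CD1 Sdc4- cells hold the highest point in 9 of the 10 panels, Pvalb being the exception, and Casq1, Ckm and Ckmt2 are filled on that array alone.

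Cacna1s encodes the pore subunit of the L-type calcium channel that serves as voltage sensor. A_51_P103541, the probe of this gene that entered the test, gave a level of -3.56 in Cspg4+ cells. It gave -4.90 in Myf5SOR+, -5.81 in Cspg4- and -6.06 in CD1 cells of the Sdc4+ group, none of them well above background, against -2.82 in B195AP+, -1.32 in Cspg4- and 0.71 in CD1 cells of the Sdc4- group. The groups did not overlap, and every Sdc4- population lay above Cspg4+ cells, which in turn lay above every Sdc4+ population. The means were -5.59 ± 0.61 on Sdc4+ and -1.14 ± 1.77 on Sdc4- arrays (SD, n = 3 each), at least 6.74-fold lower in Sdc4+ cells when the dim side is held at the detection limit. In the limma fit across all genes the log2 difference was -4.45 (SE 0.85) with an adjusted p of 0.433, which did not pass the threshold of 0.05.

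No gene passed that threshold in this contrast: limma called 0 of 19761 genes (0%) after Benjamini-Hochberg adjustment, and the smallest adjusted p was 0.222. At an unadjusted p under 0.05 it marked 1720 genes, or 8.7% of those tested, 5.41% of all being lower in Sdc4+ cells. The 3 arrays of each group were free of overlap, with Sdc4+ lower, for 9.74% of genes with a value on every array. Those shares are the background for the values that follow. The share without overlap and with Sdc4+ higher was not counted, so Ckb, Hk2 and Csf1r below have no such share beside them.

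A second probe of Cacna1s, A_55_P2169923, did not share this pattern. It gave -1.94 in Cspg4+ cells and -2.89 in CD1 Sdc4- cells, the only arrays on which it was well above background. In the remaining Sdc4- populations it gave -5.10 in B195AP+ and -4.10 in Cspg4- cells, and in the Sdc4+ group -4.14 in Myf5SOR+, -3.87 in Cspg4- and -5.84 in CD1 cells. By this probe Cspg4+ cells were the highest of the 7 and the Sdc4 groups overlapped, with a difference of -0.58. The Cspg4+ array also had the largest share of spots well above background. The probes lie on the plus strand of chromosome 1 with starts 402 bases apart, at chr1:138016020-138016079 and chr1:138015618-138015677 in mm9. Their first 30 bases are shown since each probe alone would give another order of the populations; nothing is capitalised in them.
Cacna1s A_51_P103541: cacaaaggcctgatcggtgccagggtctgt
Cacna1s A_55_P2169923: cagatggaaccagaggaagtcgaggtggca

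**Figure D2:**
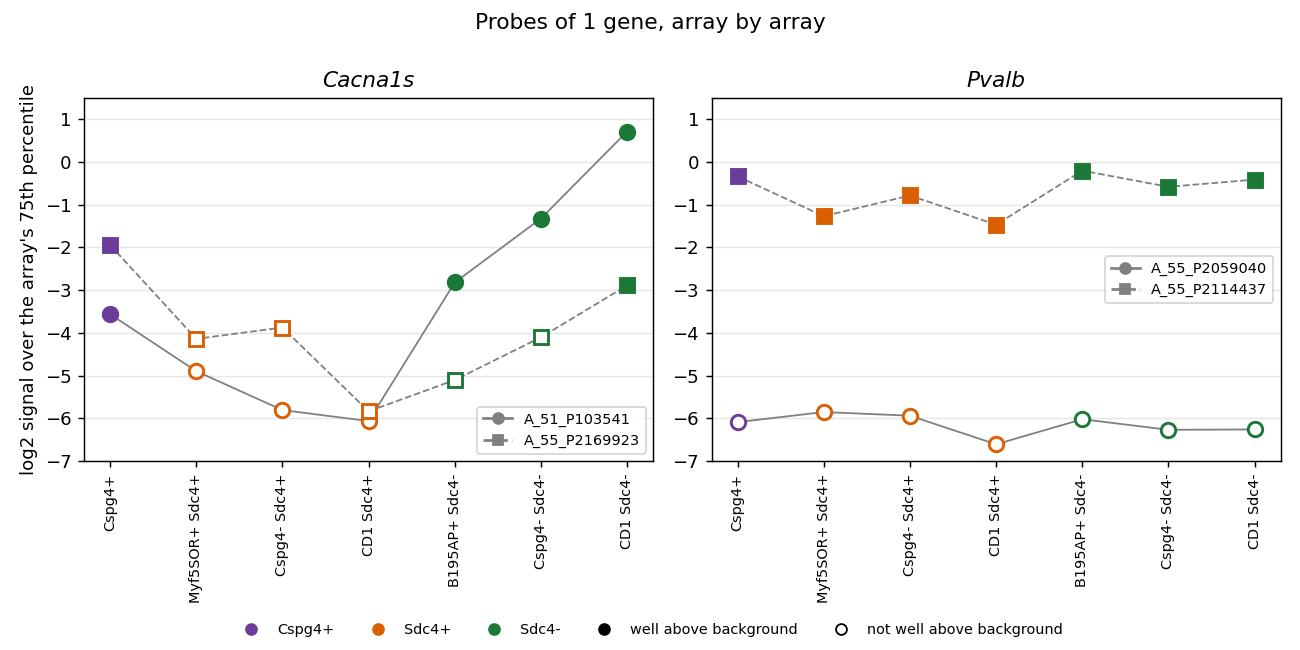
Levels of both probes of Cacna1s (left) and of Pvalb (right) on the 7 arrays, on the vertical axis as log2 signal over the array's 75th percentile; lines join the values of 1 probe, and open points were not well above background. For Cacna1s the probe A_51_P103541 is highest in CD1 Sdc4- cells and its partner in Cspg4+ cells, and for Pvalb the probe A_55_P2059040 is at background on all 7.

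Ryr1 encodes the ryanodine receptor of skeletal muscle, the release channel that Cacna1s opens. Its level was -3.33 in Cspg4+ cells. It was -3.34 in Myf5SOR+ cells and, not well above background, -4.02 in Cspg4- and -4.84 in CD1 cells of the Sdc4+ group, against -3.02 in B195AP+, -2.95 in Cspg4- and -1.09 in CD1 cells of the Sdc4- group. The groups did not overlap, but the gap between the highest Sdc4+ and the lowest Sdc4- population was small and CD1 Sdc4- cells stood far above the rest. The means of -4.07 ± 0.75 and -2.35 ± 1.1 for Sdc4+ and Sdc4- arrays (SD, n = 3 each) differed by -1.71 (SE 0.61; limma adjusted p = 0.531), a signal 3.28-fold lower in Sdc4+ cells with 1 of 3 arrays measured there. Without both CD1 arrays the difference was -0.70 (adjusted p = 0.619).

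Casq2 encodes a calsequestrin, the calcium-binding protein inside the sarcoplasmic reticulum, of heart and slow fibres. It read -4.27 in Cspg4+ cells, not well above background. It was also at background in the Sdc4+ group, with -5.54 in Myf5SOR+, -5.49 in Cspg4- and -5.68 in CD1 cells, and well above it in the Sdc4- group, with -3.31 in B195AP+, -2.89 in Cspg4- and -0.68 in CD1 cells. Of the 7 populations those of the Sdc4- group alone were well above background. The means of -5.57 ± 0.097 in Sdc4+ and -2.29 ± 1.42 in Sdc4- cells (SD, n = 3 each) gave a bound of at least 3.03-fold lower in Sdc4+ cells (log2 difference -3.27, SE 0.65, limma adjusted p = 0.433). The probe, A_51_P174696, entered the test only through the 3 Sdc4- arrays, so a difference in this direction was fixed by the filter.

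Casq1, the calsequestrin of fast fibres, was well above background in CD1 Sdc4- cells alone, at -3.35. Its reading in Cspg4+ cells, -3.55, was near that value without the software's mark, and the other 5 arrays read -6.24 to -5.52. It was therefore not tested. The probe A_51_P199104 covers an exon junction, since its bases align over chr1:174140602-174142105 of mm9 on the minus strand, a span of 1504 bases for 60 bases of probe. Its sequence is printed below with those of Ckm and Ckmt2.

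Atp2a1 encodes SERCA1, the fast-fibre pump that returns calcium to the sarcoplasmic reticulum, and was well above background on all 7 arrays. Its level was -2.29 in Cspg4+ cells. It was -2.91 in Myf5SOR+, -2.15 in Cspg4- and -2.03 in CD1 cells of the Sdc4+ group, against -2.31 in B195AP+, -1.79 in Cspg4- and -0.67 in CD1 cells of the Sdc4- group. The groups overlapped and only CD1 Sdc4- cells stood apart. The means, -2.36 ± 0.48 in Sdc4+ and -1.59 ± 0.84 in Sdc4- cells (SD, n = 3 each), differed by less than the larger SD (log2 difference -0.77, SE 0.46, limma adjusted p = 0.676). Its spot on the B195AP+ array lay among streaks, where 10 of 26 bright spots nearby were over 2-fold below the other arrays, and without that value the difference was -1.13 (adjusted p = 0.559).

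Pvalb encodes parvalbumin, the soluble calcium buffer of fast fibres. The probe A_55_P2114437 was well above background on all arrays, with a level of -0.34 in Cspg4+ cells. It gave -1.27 in Myf5SOR+, -0.78 in Cspg4- and -1.47 in CD1 cells of the Sdc4+ group, against -0.20 in B195AP+, -0.58 in Cspg4- and -0.41 in CD1 cells of the Sdc4- group. The groups did not overlap, but here CD1 Sdc4- cells were not the highest. The means of -1.17 ± 0.35 in Sdc4+ and -0.40 ± 0.19 in Sdc4- cells (SD, n = 3 each) were 1.71-fold apart (log2 difference -0.78, SE 0.25, limma adjusted p = 0.515).

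The other Pvalb probe, A_55_P2059040, was not well above background on any array, with readings of -6.61 to -5.85. The probes lie on the minus strand of chromosome 15, at chr15:78021951-78022010 for the bright and chr15:78021549-78021608 for the dim one (mm9), again 402 bases apart. Which of the probes reports the Pvalb transcript was not tested, and the level above rests on the bright one alone. Their first 30 bases are shown to let a reader tell the probes apart, with nothing capitalised.
Pvalb A_55_P2114437: agtttgtttgtgttattttttactccccca
Pvalb A_55_P2059040: ctccaatgacactctatcaattgcttttga

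Cox6a2 encodes the heart and skeletal muscle form of subunit VIa of cytochrome c oxidase, the last enzyme of the respiratory chain. It was well above background on all 7 arrays and gave the smallest unadjusted p of the 6 tested genes in limma, 0.000622. Its level was -2.15 in Cspg4+ cells. It was -2.75 in Myf5SOR+, -2.61 in Cspg4- and -2.64 in CD1 cells of the Sdc4+ group, against -0.08 in B195AP+, -1.22 in Cspg4- and 0.28 in CD1 cells of the Sdc4- group. The Sdc4+ populations lay close together and all of them, with Cspg4+ cells, lay below every Sdc4- population. The means of -2.67 ± 0.073 in Sdc4+ and -0.34 ± 0.78 in Sdc4- cells (SD, n = 3 each) were 5.01-fold apart (log2 difference -2.33, SE 0.39, limma adjusted p = 0.433).

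The creatine kinases were seen in 1 population. Ckm encodes the muscle form in the cytosol and at the M line, and its level was -2.35 in CD1 Sdc4- cells, against readings at background of -6.26 to -5.15 on the other 6 arrays. Ckmt2 encodes the sarcomeric form in mitochondria, with a level of -3.25 in CD1 Sdc4- cells and readings at background of -5.75 to -5.06 elsewhere. Both were left out of the test by the filter, which asked for 3 arrays above background.

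Casq1, Ckm and Ckmt2 share this single detection in CD1 Sdc4- cells, and each of their probes runs across an intron, as does the Ryr1 probe A_52_P391110, which spans 699 bases and was well above background on 5 arrays. The Ckm probe aligns over chr7:20002222-20004829 on the plus strand and the Ckmt2 probe over chr13:91993242-91995390 on the minus strand of mm9, spans of 2608 and 2149 bases. Their sequences are given whole because such a probe matches spliced RNA in full and genomic DNA only in pieces; nothing is capitalised.
Casq1 A_51_P199104: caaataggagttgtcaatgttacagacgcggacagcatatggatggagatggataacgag
Ckm A_51_P380807: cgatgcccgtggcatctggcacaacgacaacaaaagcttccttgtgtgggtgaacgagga
Ckmt2 A_51_P165293: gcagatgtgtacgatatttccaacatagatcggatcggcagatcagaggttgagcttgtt

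Mb encodes myoglobin, the oxygen store of oxidative fibres and heart. It was well above background on 2 arrays of opposite label, with a level of -3.31 in Cspg4- Sdc4+ cells and -1.74 in CD1 Sdc4- cells. Readings at background were -6.10 in Cspg4+ cells, -4.62 in Myf5SOR+ and -4.37 in CD1 Sdc4+ cells, and -4.10 in B195AP+ and -5.22 in Cspg4- cells of the Sdc4- group. Mb is the only one of the 10 genes measured in an Sdc4+ population while at background in the Sdc4- cells of the same line.

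The CD1 and Cspg4-cre lines gave both an Sdc4+ and an Sdc4- population, which allows a comparison within a line, with 1 array on each side and no test. In CD1 mice all 10 genes lay over 2-fold lower in Sdc4+ than in Sdc4- cells by their readings. Of the 19756 genes that passed the filter and had both values, 2.65% reached that size in this direction and 1.99% in the other. That set holds 6 of the 10, all 6 over 2-fold lower, but not Mb, Casq1, Ckm and Ckmt2. Casq1, Ckm and Ckmt2 were above background in CD1 Sdc4- cells alone, which fixed their direction here. Cacna1s was at least 36.0-fold lower in Sdc4+ cells by A_51_P103541 (log2 -6.78) and at least 2.97-fold lower by A_55_P2169923. Casq2 was at least 13.7-fold and Ryr1 at least 10.3-fold lower. Among genes measured on both arrays Cox6a2 was 7.60-fold, Atp2a1 2.58-fold and Pvalb 2.08-fold lower in Sdc4+ cells. For the genes seen only in CD1 Sdc4- cells or nearly so, the bounds were at least 6.22-fold for Mb, 4.30-fold for Ckm, 2.30-fold for Ckmt2 and 2.15-fold for Casq1.

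The same contrast among Cspg4- cells gave smaller values for most of the genes. Cacna1s was at least 4.85-fold lower in Sdc4+ cells by A_51_P103541, while A_55_P2169923 was at background on both arrays. Casq2 was at least 1.63-fold and Ryr1 at least 1.57-fold lower, and Cox6a2, measured on both arrays, 2.61-fold lower. Atp2a1 and Pvalb differed by log2 -0.35 and -0.20. Casq1, Ckm and Ckmt2 were at background on both arrays, and Mb was at least 1.52-fold higher in the Sdc4+ cells. Over all genes, 3.85% lay over 2-fold lower and 4.92% over 2-fold higher in the Sdc4+ cells of this line.

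**Figure D3:**
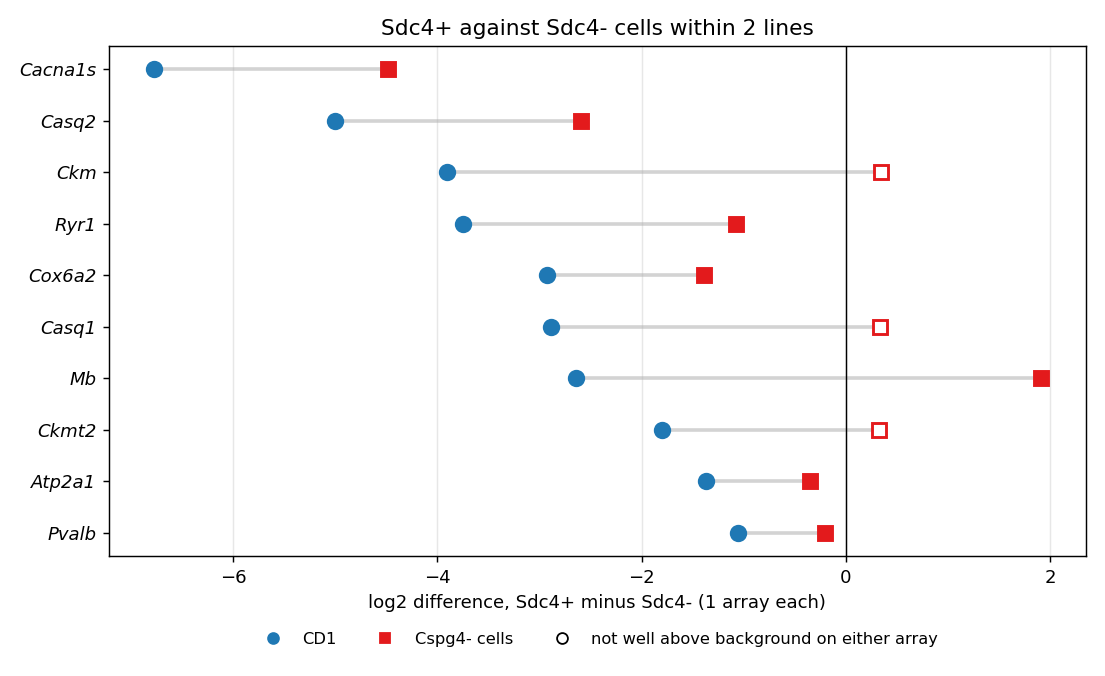
Log2 difference of each of the 10 genes, Sdc4+ minus Sdc4-, within the CD1 line (blue circles) and among Cspg4- cells (red squares), 1 array on each side; open symbols were not well above background on either array, and a grey line joins the 2 values of a gene. With Cacna1s read by A_51_P103541, all 10 circles lie left of 0, and Mb, at -2.64 in CD1 and 1.91 in Cspg4- cells, is the gene whose filled symbols lie on opposite sides.

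Cspg4+ cells can be set beside the Cspg4- cells of their own line, again with 1 array each and no test. Against Cspg4- Sdc4- cells, Casq2 was at least 1.86-fold lower in Cspg4+ cells and Cacna1s 4.72-fold lower by A_51_P103541, but at least 3.93-fold higher by A_55_P2169923. Atp2a1, Ryr1 and Cox6a2 differed by log2 -0.50, -0.38 and -0.93, and Pvalb by 0.24. Over 2-fold lower were 1.88% and over 2-fold higher 3.63% of all genes. Against Cspg4- Sdc4+ cells, Ryr1 was at least 1.21-fold higher in Cspg4+ cells, Cacna1s at least 1.03-fold by A_51_P103541 and at least 3.16-fold by A_55_P2169923, and Mb at least 1.40-fold lower. Over all genes 4.87% lay over 2-fold lower and 6.34% over 2-fold higher in Cspg4+ cells.

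In the limma contrast of Cspg4+ with the mean of both Sdc4 groups the tested genes had log2 differences of -0.65 (Cox6a2) to 0.45 (Pvalb), with an adjusted p of 1.00 for each. This contrast shares its Sdc4 arrays with the one above. It called 0 of 19761 genes (0%) in limma, and 5.16% had an unadjusted p under 0.05.

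Late genes were then set against genes of early differentiation: Myog, Myod1 and Mef2c for the regulators, Mymk for fusion, Myh3, Myh8, Actc1, Tnnt2, Myl4, Mybph and Des for the first sarcomeres, Chrna1, Chrng and Chrnd for the receptor at the synapse, and Cdh15 for adhesion. In Cspg4+ cells 12 of these 15 were well above background, beside 5 of the 10 late genes. In the Sdc4+ group the early count was 5 in Myf5SOR+, 5 in Cspg4- and 12 in CD1 cells, beside 4, 4 and 3 late genes. In the Sdc4- group it was 12 in B195AP+, 13 in Cspg4- and 15 in CD1 cells, beside 6, 6 and 10.

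CD1 Sdc4+ cells thus had as many early genes above background as B195AP+ Sdc4- cells and the fewest late genes of the 7 populations. These counts depend on the detection limit, which relative to the 75th percentile lay lowest on the CD1 Sdc4+ array (12.55 against 241.9). It was 11.27 against 129.7 on the Myf5SOR+ and 10.59 against 128.4 on the Cspg4- Sdc4+ array. In multiples of that percentile the early genes summed to 10.7 in CD1 and 11.6 in Cspg4- Sdc4+ cells. Their median levels were -3.11 and -3.71. Among the early genes in CD1 Sdc4+ cells were Myh3, the embryonic myosin heavy chain, at -3.11, Myh8, the perinatal one, at -2.19, Tnnt2, the cardiac troponin T that young fibres also use, at -3.11, and Myog, the regulator of terminal differentiation, at -4.05. These 4 were chosen after their values were seen. Myog was not well above background in Cspg4+ cells, where Myh3 read -2.16 and Myh8 -1.30.

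**Figure D4:**
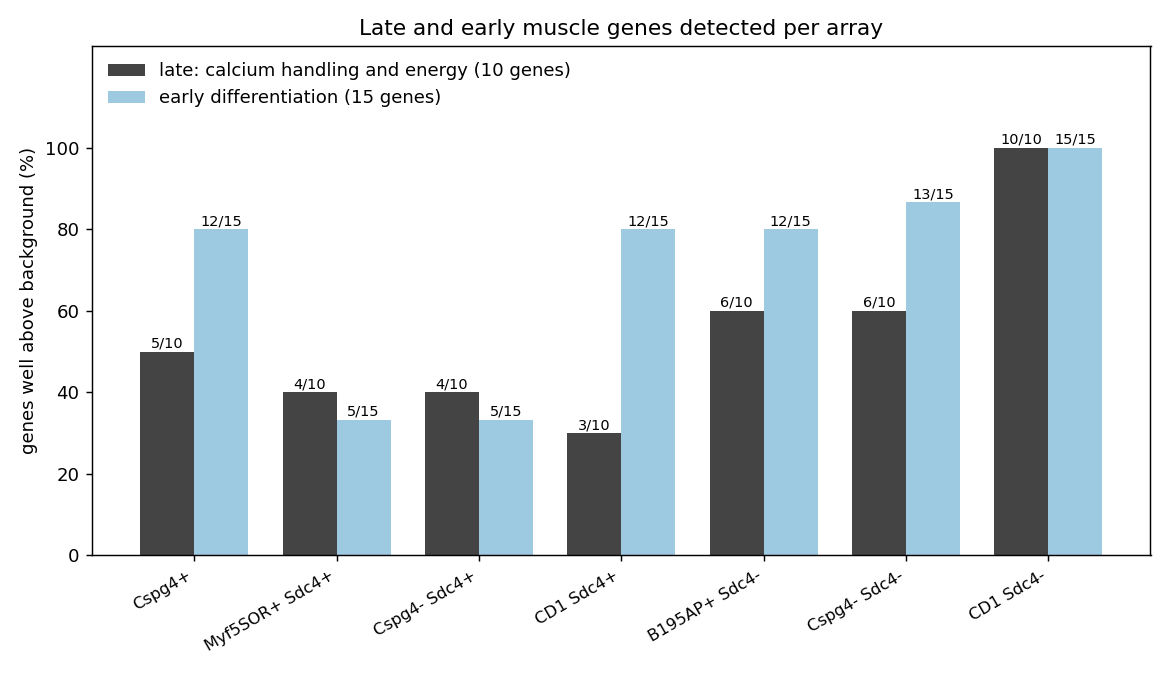
Share of the 10 late genes (dark bars) and of the 15 early genes (light bars) that were well above background on each of the 7 arrays, in percent, with the counts above the bars. At least 12 of 15 early genes were seen in Cspg4+, CD1 Sdc4+ and the 3 Sdc4- populations, while over 6 of 10 late genes were seen in CD1 Sdc4- cells alone.

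Among tested genes the early list differed between the Sdc4 groups by more than the late one on the log2 scale, though the difference between the lists was not tested. All 13 tested early genes were lower in Sdc4+ cells, with a median log2 difference of -3.20 and 10 of 13 without overlap. All 6 tested late genes were lower, with a median of -2.02 and 5 of 6 without overlap, beside a median of -0.056 over all genes and 56.6% of them lower. These medians follow in part from the filter. Casq2 entered only through Sdc4- arrays, and Cacna1s and, among the early genes, Mybph only through Sdc4- and Cspg4+ arrays, with no Sdc4+ array above background. Over all 10 late genes with no filter the median was -1.06. No such median was computed for the early list, so -1.06 has no early counterpart. Myod1 and Chrng, the early genes left out by the filter, differed by -0.82 and -1.29 in readings mostly at background. No early gene passed the limma threshold, their adjusted p running from 0.42 to 0.80.

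The early genes with the largest fitted differences were mostly of the sarcomere, and their Sdc4+ values were largely at background. Myh3, Myh8, Tnnt2 and Chrnd were each well above background on 1 of 3 Sdc4+ arrays, that of CD1 cells, and Actc1 on 2 of 3, so the sizes of their differences are uncertain. Myh3 averaged -4.35 ± 1.33 in Sdc4+ and 2.29 ± 1.34 in Sdc4- cells (SD, n = 3 each), or -6.64 between the groups on the log2 scale (SE 0.85, limma adjusted p = 0.42). Myh8 differed by -5.75, Actc1, the cardiac actin of developing fibres, by -4.98 and Tnnt2 by -4.27. Mybph, which encodes a protein that binds myosin, lay at least 8.44-fold lower in Sdc4+ cells and Chrnd, the delta subunit of the acetylcholine receptor, differed by -3.27. Myod1 and Chrng were well above background in CD1 Sdc4- cells alone, as Casq1, Ckm and Ckmt2 were.

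**Figure D5:**
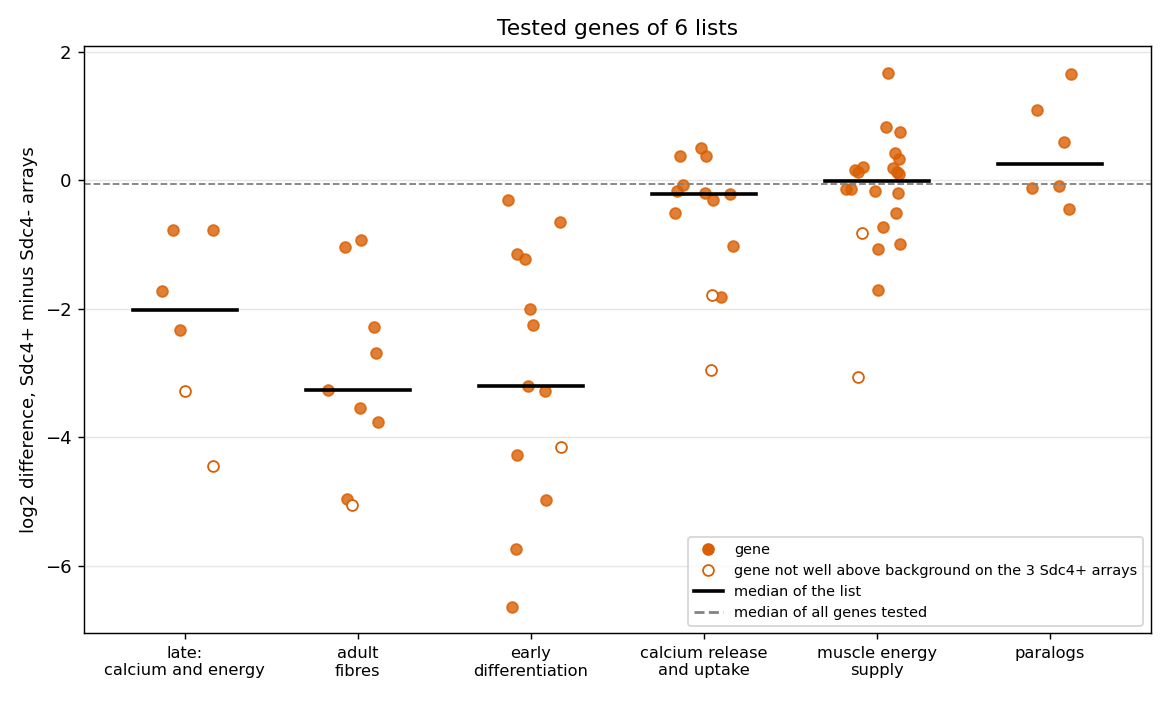
Log2 difference between the Sdc4+ and Sdc4- arrays, Sdc4+ minus Sdc4-, of each tested gene in 6 lists; the bar is the list's median, the dashed line the median of all genes tested at -0.056, and open points were not well above background on the 3 Sdc4+ arrays. Late, adult fibre and early genes lie wholly below 0, with medians of -2.02, -3.27 and -3.20, and the calcium, energy and paralog lists scatter around it. Genes with open points entered the test only through Sdc4- or Cspg4+ arrays, so the filter favoured a value below 0 for them.

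CD1 Sdc4- cells had the highest level of the 7 arrays for 5 of the 6 tested late genes and 10 of the 13 tested early genes, against 6.26% of all tested genes. Structural genes of adult fibres were high on the same array. Of 13 such markers 8 were well above background in Cspg4+ cells, 6 to 8 in the Sdc4+ group and 9 to 11 in the Sdc4- group. Their summed signal, in multiples of the array's 75th percentile, was 2.97 in Cspg4+ cells, 1.39 to 2.78 in the Sdc4+ group and 6.48 to 57.1 in the Sdc4- group, the highest being CD1 Sdc4- cells. Myh2 and Mylpf, defining genes of fast fibres, were not well above background on any array, while Acta1, the skeletal actin, and Tnni2, the fast troponin I, were well above it on 6 and 7 arrays. The part of these markers in the differences of the late genes was not tested.

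Heart muscle uses Casq2, Mb and Cox6a2 too. Of 4 cardiac markers 3 were well above background in Cspg4+ cells, 2 on each Sdc4+ array and 2 or 3 on the Sdc4- arrays, with summed signals of 0.709, 0.197 to 0.507 and 0.256 to 0.593. Tnni3 and Nppa were well above background on all 7 arrays, at -3.68 to -1.17 and -3.74 to -2.56, with the highest level of Tnni3 in Cspg4+ cells. Myl7, the atrial myosin light chain, was at background on all 7 arrays. Myh6, the cardiac myosin heavy chain, was well above background in Cspg4+ cells at -2.84 and in B195AP+ Sdc4- cells at -1.82. B195AP+ cells had the second highest level of Cox6a2 of the 7 populations, but the lowest of Casq2 in the Sdc4- group, at -3.31, and Mb at background. The spots of Myh6 and Cox6a2 lay in the streaked part of the B195AP+ array. The part of heart markers in the values of Casq2, Mb and Cox6a2 was not tested.

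The 10 genes have paralogs that serve the same step in other tissues, and 6 of 11 such paralogs were tested, 3 lower and 3 higher in Sdc4+ cells, with a median difference of 0.25 and 0 of them called by limma. Ckb, the creatine kinase of brain and many other tissues, gave 0.89 in Cspg4+ cells. It gave 2.30 in Myf5SOR+, 2.04 in Cspg4- and 2.54 in CD1 cells of the Sdc4+ group, against 0.96 in B195AP+, 1.20 in Cspg4- and 1.42 in CD1 cells of the Sdc4- group. The groups did not overlap, and the direction was the reverse of that of the muscle genes (log2 difference 1.1, SE 0.23, limma adjusted p = 0.433). Atp2a2, the pump of heart, slow fibres and most other cells, differed by 0.59, and Cacna1d, a related calcium channel subunit, by 1.66.

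Ckmt1, the ubiquitous mitochondrial creatine kinase, and Cox6a1, the ubiquitous form of the oxidase subunit, differed by -0.12 and -0.09, and Cygb, cytoglobin, by -0.44. Ryr2 and Cacna1c, the release channel and the voltage-gated channel of heart, were well above background in Cspg4+ cells alone, at -3.49 and -2.58. Both were dim, and the Cspg4+ array had the largest share of spots well above background. Ocm, a parvalbumin known from hair cells, was well above background in Cspg4+ cells at -3.07 and in B195AP+ Sdc4- cells at -1.27. Atp2a3 and Ryr3 were at background on all 7 arrays.

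Of 19 other genes of calcium release and uptake, 13 were tested, 10 of them lower in Sdc4+ cells, with a median difference of -0.21, 3 without overlap and 0 called by limma. Srl, which encodes sarcalumenin of the sarcoplasmic reticulum, was at least 3.0-fold lower in Sdc4+ cells (log2 difference -2.96, SE 0.60, adjusted p = 0.433). Like Casq2 it entered the test only through the 3 Sdc4- arrays, which fixed this direction. Hrc, the histidine-rich calcium-binding protein of the same compartment, differed by -1.82. Cacng1, the gamma subunit of the channel that holds Cacna1s, was at least 1.63-fold lower in Sdc4+ cells, none of which had it above background. It entered the test only through Sdc4- and Cspg4+ arrays, so the filter favoured this direction. Stac3, the adaptor that couples Cacna1s to Ryr1, averaged -0.009 ± 0.186 in Sdc4+ and 1.00 ± 0.086 in Sdc4- cells (SD, n = 3 each), without overlap and with a difference of -1.01 (SE 0.19, limma adjusted p = 0.433).

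Tmem38a and S100a1 completed the 6 largest differences of the list, at -0.51 and 0.51. Among genes left out of the test and picked here after their values were seen, Sln, which encodes the SERCA inhibitor sarcolipin, was well above background in Cspg4- and CD1 Sdc4- cells at -1.25 and 0.26. Trdn, the triadin that ties calsequestrin to Ryr1, was so in Cspg4+ cells at -2.69 and in CD1 Sdc4- cells at -3.42. The junctophilins Jph1 and Jph2 and Pln were at background on all 7 arrays.

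All 22 other genes of muscle energy supply were tested, 11 lower and 11 higher in Sdc4+ cells, with a median difference of -0.01 and 0 called by limma. Of these genes 5 were without overlap, 4 of them lower in Sdc4+ cells. Cox8b, which like Cox6a2 encodes a muscle form of an oxidase subunit, was at least 4.35-fold lower in Sdc4+ cells (log2 difference -3.06, SE 0.71, limma adjusted p = 0.436). With no Sdc4+ array above background, it entered the test only through Sdc4- and Cspg4+ arrays, so the filter favoured this direction. Pgam2 and Eno3, the muscle forms of phosphoglycerate mutase and enolase, differed by -1.70 and -1.07, and Slc2a4, the insulin-responsive glucose transporter, by -0.99. Ampd1, the muscle AMP deaminase, differed by 1.68 and Hk2, hexokinase 2, by 0.83, with no overlap for Hk2. Ampd1 overlapped and was well above background on 2 Sdc4+ arrays and 1 Sdc4- array, so the size of its difference is uncertain. Within CD1 mice it differed by 0.34.

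The 6 tested late genes shared a mean profile but not one order of populations: CD1 Sdc4- cells were highest for 5 of them, and B195AP+ cells for Pvalb. Their levels, each taken as a deviation from the gene's own mean over the 7 arrays and averaged, were -0.17 in Cspg4+ cells, -0.96, -0.99 and -1.30 in Myf5SOR+, Cspg4- and CD1 Sdc4+ cells, and 0.53, 0.70 and 2.18 in B195AP+, Cspg4- and CD1 Sdc4- cells. Pairs of these genes had a Pearson r over the 7 arrays of 0.35, for Atp2a1 and Pvalb, to 0.98, for Casq2 and Cacna1s. Nearness to the mean profile was ranked among the 14033 tested genes with a RefSeq symbol, the late genes left out. The 5 nearest were Srl (r = 0.99), Actn2, an actinin of the Z disc (0.99), Tnni2 (0.99), 5430431A17Rik (0.98) and Tnni1, the slow troponin I (0.98). The 7 arrays share a slide and 1 high array, and these correlations are given as a description.

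Casq2 and Cacna1s had the most alike values of any pair and Ckm was seen in CD1 Sdc4- cells alone, so the upstream sequences of these 3 genes are shown with the motifs of myogenic factors. Windows of RefSeq promoters (GRCm38.p6, 250 bases before to 50 after the start of a gene) were found for 9 of the 10 genes, all but Cox6a2. These genes had 12 windows, and a gene counts if any of its windows matches. The shares over all promoters are per window, so the rates are not of the same kind. On either strand the E-box CANNTG occurred in 8 of these 9 genes and in 72.3% of 32851 windows. CAGCTG, an E-box that myogenic regulators bind and thus part of that count, occurred in 6 of 9 and in 16.3% of windows, CACCTG or CAGGTG in 2 of 9 and in 20.2%, and the MEF2 site in 2 of 9 and in 3.19%. A match is a description of letters and not a site of binding.

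Capitals mark CAGCTG, which begins at position -123 from the gene's start in Cacna1s and at -249 in Ckm, and the MEF2 site, which begins at -69 in Casq2. The windows lie at chr1:136052561-136052810, chr7:19410844-19411093 and chr3:102086165-102086414 of GRCm38.p6, all on the plus strand, and only the bases before the start are printed.
Cacna1s: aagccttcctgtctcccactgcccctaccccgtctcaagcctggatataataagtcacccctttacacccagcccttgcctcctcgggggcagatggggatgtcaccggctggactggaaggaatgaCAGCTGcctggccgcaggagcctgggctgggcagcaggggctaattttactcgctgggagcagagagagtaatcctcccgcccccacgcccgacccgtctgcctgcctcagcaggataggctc
Ckm: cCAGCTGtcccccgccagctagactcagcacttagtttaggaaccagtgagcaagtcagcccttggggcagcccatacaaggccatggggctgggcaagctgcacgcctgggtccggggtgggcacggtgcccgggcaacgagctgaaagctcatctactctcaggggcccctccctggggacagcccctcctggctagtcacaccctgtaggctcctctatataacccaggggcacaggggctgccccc
Casq2: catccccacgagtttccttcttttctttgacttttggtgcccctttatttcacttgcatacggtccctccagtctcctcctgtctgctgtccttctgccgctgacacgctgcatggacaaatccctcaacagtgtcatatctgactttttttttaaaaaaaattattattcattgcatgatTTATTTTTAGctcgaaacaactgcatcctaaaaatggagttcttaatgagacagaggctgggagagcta

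The sizes of the differences between the Sdc4 groups depended on the treatment of dim signals. With normexp background correction the log2 difference was -1.25 for Cacna1s, -1.06 for Cox6a2, -0.65 for Casq2, -0.45 for Ryr1, -0.39 for Pvalb and -0.30 for Atp2a1. Without the CD1 Sdc4- array it was -3.52 for Cacna1s, -2.46 for Casq2, -2.02 for Cox6a2, -1.08 for Ryr1, -0.78 for Pvalb and -0.31 for Atp2a1. With the values of the streaked part of the B195AP+ array left out it was -5.28 for Cacna1s, -2.20 for Cox6a2, -2.05 for Ryr1 and -1.13 for Atp2a1, the tested genes with a spot there. All stayed below 0, and none passed the limma threshold.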

How the data were processed

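Each array's deposited file gives fluorescence intensity by spot. Per the file headers, Agilent Feature Extraction 11.5.1.1 subtracted the background and detrended the signals, and nothing was normalized between arrays. Biotin stands in the labels as the label, although the files have 1 green channel. A deposited series table has log2 values, for which the submitters' processing notes name lumi without a version. The medians of its columns are 5.15 to 5.17 and its ranks follow the intensity, but its centring is not known, and it served only as an alternative. Per the file headers, the positions of the probes refer to mm9.

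Of 62976 spots per array the 59305 non-control spots, of 55681 probes, were used, and spots marked as outliers were set to missing. The log2 processed signal minus the array's 75th percentile is the level; spots of a probe were averaged. A gene was represented by the probe with the highest mean among those passing the software's background mark on 3 arrays or more. Names came from the GeneName column, updated by accession for 27656 probes; 28025 kept the name in the file. limma 3.58.1 in R 4.3.3 fitted 3 group means with Benjamini-Hochberg adjustment at 0.05 and was tested on simulated data. The fit takes the spread of the lone Cspg4+ array to be that of the other arrays. The p-values measure the spread between these arrays only, whose number limits the precision. A dim gene is given as "at least N-fold": the bright side's mean against the mean, on the dim side, of each array's lowest well-above-background signal or the probe's own, whichever was higher. Single arrays carry no test, and 2-fold was the size counted there.

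The 10 genes and the lists (early differentiation, paralogs, calcium, energy, adult fibres and other cell types) were chosen with earlier results of these data known. The genes named were the 10 members, the paralogs, up to 6 tested genes per list by size of difference, marker genes and the 5 genes nearest to the mean profile; exceptions are stated. The alternatives were background correction, normalization, filter, probe choice, the streaked region (spot rows up to 200, columns up to 130), the series table, the mouse line as a block and leaving out each array. Leaving out both CD1 arrays, or the streaked region on the B195AP+ array alone, was added after seeing the data.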

Additional observations from a re-analysis of the deposited data

Results flagged for a closer look

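Mb, the myoglobin gene, had differences of opposite sign between Sdc4+ and Sdc4- cells of the lines that gave both. In CD1 mice the log2 difference, Sdc4+ minus Sdc4-, was -2.64, with a level of -4.37 (not well above background) in Sdc4+ and -1.74 in Sdc4- cells. In Cspg4- cells it was 1.91, with -3.31 in Sdc4+ and -5.22 (not well above background) in Sdc4- cells. Each value rests on 1 array a side and the difference between the lines was not tested. The Mb spot lay in the streaked part of the B195AP+ array, an array that enters neither difference.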

How the results depend on the processing

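Results were recomputed under up to 18 alternative settings. No tested gene of the 10 changed direction or passed the threshold in any setting that gave it a value. For part of the settings this was fixed in advance. Taking the mean of a gene's probes left every difference as it was, the second probes of Cacna1s and Pvalb having failed the filter. So did leaving out the Cspg4+ array, and the filter fixed the direction of Casq2. The lowest limma adjusted p, 0.0988 for Cacna1s, Casq2 and Cox6a2, came with the line as a random block (consensus correlation 0.601). The median difference of the tested members, -2.02, was -0.55 with normexp background correction, -1.06 with no filter (10 genes) and -0.78 with probes well above background on the 7 arrays (3 genes, the stricter filter having removed the others). Leaving out each array in turn gave -2.39 to -1.55, and leaving out both CD1 arrays -1.36. The count of genes called between Sdc4+ and Sdc4- arrays was 5 with the random block and 0 to 1 when each array was left out in turn, the 1 without the CD1 Sdc4- array. For the Cspg4+ contrast it was 2842 with no filter, 11 with the deposited series table and 29 with the random block, and 0 in the other settings; the cause was not tested. By replicate number, no paired analysis was possible because every label gives replicate 1. The line as a fixed block, which sets the arrays of the Cspg4-cre and CD1 lines against each other within the line, called 0 genes between Sdc4+ and Sdc4- arrays (smallest adjusted p 0.15 in limma, 1917 genes at an unadjusted p under 0.05), with log2 differences of -5.63 for Cacna1s, -3.80 for Casq2, -2.41 for Ryr1, -2.16 for Cox6a2, -0.86 for Atp2a1 and -0.63 for Pvalb. Dim signals limit Casq1, Ckm, Ckmt2 and Mb, which were tested only with no filter.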

Other observations

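Markers of other cell types were read on the same arrays, as counts well above background. Fibroblast genes (Col1a1, Pdgfra, Dcn and Lum) were seen 4 of 4 on each of the 7 arrays, with summed signals in multiples of the 75th percentile of 596 in Cspg4+ cells, 374 to 671 in the Sdc4+ group and 474 to 771 in the Sdc4- group. Of 7 satellite cell genes 3 were seen on each array, Cdh15, Itga7 and Sdc4, with summed signals of 45.4 in Cspg4+ cells, 17.1 to 86.1 in the Sdc4+ group and 9.69 to 46.6 in the Sdc4- group. The highest sum, in CD1 Sdc4+ cells, was mostly Sdc4 itself, at a level of 6.35 beside 2.13 for Itga7 and -2.42 for Cdh15. Between Sdc4+ and Sdc4- arrays Cdh15 and Itga7 differed by -1.14 and -0.38. Of 4 pericyte genes 2 were seen in Cspg4+ cells, 2 or 3 in the Sdc4+ group and 2 in the Sdc4- group, with the highest summed signals at 14.9 in Cspg4+ cells, 17.3 in the Sdc4+ group and 18.9 in the Sdc4- group. Of 4 smooth muscle genes 2 were seen on each array, Acta2 and Tagln, with Myh11 and Cnn1 at background and summed signals of 1.16 in Cspg4+ cells, 1.27 to 1.79 in the Sdc4+ group and 1.23 to 2.77 in the Sdc4- group. Of 4 macrophage genes 2 were seen in Cspg4+ cells, 2 in the Sdc4+ group and 2 or 3 in the Sdc4- group, with summed signals of 6.72 in Cspg4+ cells, 8.86 to 13.9 in the Sdc4+ group and 5.24 to 9.41 in the Sdc4- group. Csf1r differed by 0.69 on the log2 scale between Sdc4+ and Sdc4- arrays, without overlap (limma adjusted p = 0.515), and Cd68 by 0.54, with overlap. Ptprc was at background on all 7 arrays, and Adgre1 was well above it in B195AP+ Sdc4- cells alone, at -2.53. Of 4 adipocyte genes 2 were seen in Cspg4+ cells and 1 on each of the other arrays, with summed signals of 72.9, 53.9 to 59.4 in the Sdc4+ group and 55.2 to 84.1 in the Sdc4- group. Both keratinocyte genes were seen in Cspg4+ cells, 0 to 2 in the Sdc4+ group and 1 or 2 in the Sdc4- group. Of 3 Schwann cell genes 1 was seen in Cspg4+ cells, 1 in the Sdc4+ group and 1 or 2 in the Sdc4- group.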
